A study of Mus musculus with 4 samples.

Results

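The genes described here are 8 cytokines that helper T cells can secrete outside the core type 2 set: Il10, Il24, Il2, Il3, Il6, Il9, Il21 and Csf2. They were taken by gene symbol, 8 of the 54532 genes in the deposited table, and each symbol matched a single gene. Mouse wild-type naive CD4+ T cells were polarised towards T helper 2 (Th2) cells with or without HU-308, given a second stimulus on day 4 with beads against CD3 and CD28, and harvested after a further 12 h. HU-308, a synthetic agonist, is selective for the cannabinoid receptor CB2. The 4 libraries are 2 HU-308 and 2 DMSO cultures, all labelled wild type, Th2 and bleomycin-induced systemic sclerosis, a mouse model in which bleomycin causes fibrosis. No library came from cells without the receptor, and the labels give neither the dose, the animals' age or strain, nor whether replicates came from separate animals. The spread behind each p-value is thus only that between libraries and may be technical.

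Cytokines of helper T cells are made in bursts after the T cell receptor is engaged, when calcium-activated NFAT factors and AP-1 reach their genes. IL-10 restrains myeloid cells and other T cells, and IL-24 belongs to the same family and signals mainly to epithelial cells. IL-2 and IL-21 act through the common gamma chain and sustain T cells and B cells, IL-3 and GM-CSF (the product of Csf2) feed myeloid cells and share a beta chain, IL-9 acts on mast cells, and IL-6 signals through gp130. Il10 and Il24 are known as products of Th2 cells, and Il9 marks a related helper subset.

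The libraries held 16145298 to 20479254 counts, and 20525 to 21319 genes had at least 1 read. The 10 CD4+ T cell markers were all read, with Cd4 at 401 to 576 CPM (read counts scaled to library size by TMM) and Cd3e at 164 to 227 CPM. Il4 was present at 26.4 and 27.8 CPM with DMSO and 10.9 and 9.71 CPM with HU-308 (log2 fold change −1.40 ± 0.18, edgeR adjusted p = 0.0594). Ifng had 1 read in all and Il22 none. Of the 12 markers of macrophages and monocytes 3 had no read (Lyz2, C1qa and C1qb) and 3 were tested, with Adgre1 the highest at 26.4 to 74.1 CPM. Of the 9 mast cell and basophil markers 5 had no read, while Cpa3, a mast cell protease, was at 9.0 to 22.0 CPM. All 7 B cell markers were read, led by the immunoglobulin chain Ighm at 36.5 and 29.3 CPM with DMSO and 77.8 and 60.4 CPM with HU-308 (log2 fold change 1.07 ± 0.20, edgeR adjusted p = 0.092).

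The 8 cytokines spanned the whole range of expression, from among the most abundant transcripts of the cell to no read at all. Il24 and Il10 were abundant and lower with HU-308, by 3.46-fold and 3.56-fold. Of the 2, Il10 passed the threshold across all genes and Il24 did not. Il6 and Il21 were low and had no call, Csf2 was at a few reads, and Il2, Il3 and Il9 were at or near 0 in both groups.

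**Figure D1:**
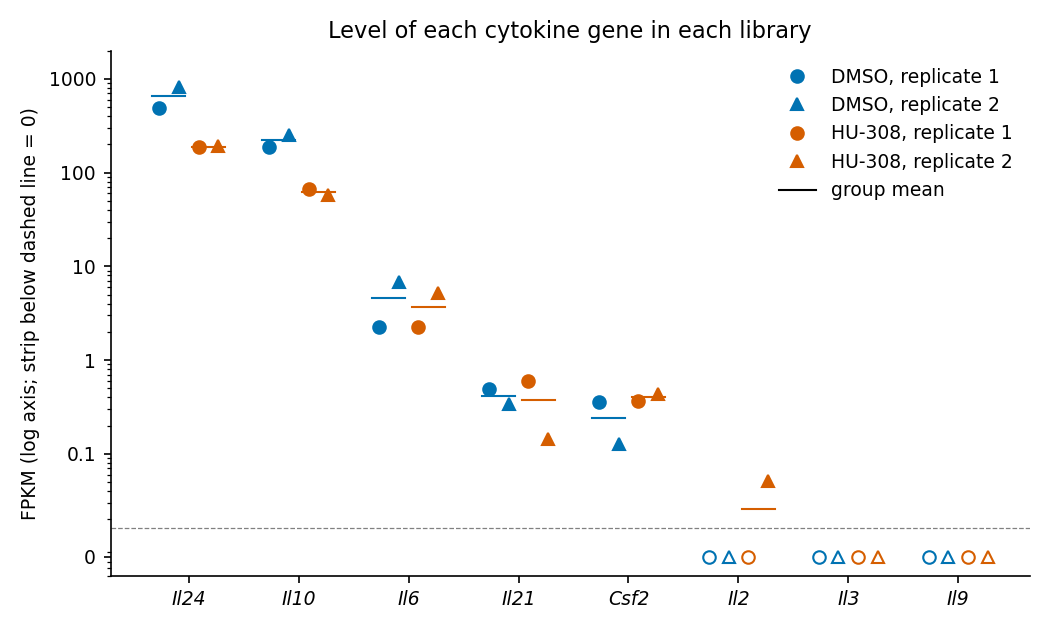
Level of each of the 8 cytokine genes in each library, as FPKM (fragments scaled by gene length and library depth) on a log axis, with values of 0 drawn as open symbols in a strip at the bottom and group means as lines. Il24 and Il10 lie above 57 FPKM in every library and are lower in both HU-308 libraries, Il6 separates by replicate number rather than by group, and Il3 and Il9 are at 0 throughout.

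Per length, the order was Il24, Il10, Il6, then Il21 and Csf2, then Il2, with Il3 and Il9 at 0. In each group the lowest library of Il24 lay above the highest of Il10, and the same held for Il10 over Il6. Il6 lay above Il21 in the same way (2.25 to 6.87 FPKM against 0.144 to 0.597 FPKM over all libraries). Il21 and Csf2 overlapped within each group, so their order is not resolved.

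Il24 (ENSMUSG00000026420; GRCm38 chromosome 1, 130882074 to 130887454, minus strand) was the highest of 38 cytokine genes by FPKM in all 4 libraries. It stood at 490 and 829 FPKM in the DMSO libraries and at 186 and 193 FPKM in the HU-308 libraries. With DMSO it ranked 46 and 27 among all genes of its library, and with HU-308 178 and 163. Il24 alone made up 46.5% and 53.9% of the summed FPKM of the 38 cytokine genes with DMSO and 39.2% and 37.4% with HU-308.

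Il10 (ENSMUSG00000016529; chromosome 1, 131019845 to 131024974, plus strand) stood at 187 and 255 FPKM with DMSO and at 66.1 and 57.4 FPKM with HU-308. It was the second cytokine gene by FPKM in both DMSO libraries and the third in both HU-308 libraries, where Tgfb1 lay above it at 94.1 and 101 FPKM. Its FPKM was 8.73 and 11.3 times that of Il4 with DMSO and 7.49 and 7.37 times with HU-308. So Il10 exceeded Il4, the cytokine that defines Th2 cells, in every library.

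On the CPM scale Il10 went from 290 ± 63.2 (SD, n = 2) with DMSO to 81.7 ± 7.42 with HU-308. Its log2 fold change was −1.83 ± 0.19 (SE; edgeR quasi-likelihood test, Benjamini-Hochberg adjusted p = 0.0482). Il10 thus fell, and both HU-308 libraries lay below both DMSO libraries. Il24 went from 918 ± 333 to 265 ± 9.74 CPM, a log2 fold change of −1.79 ± 0.27 with an adjusted p of 0.0679 in the same edgeR test. The 2 DMSO libraries of Il24 differed more from each other (682 and 1153 CPM) than those of Il10 did (246 and 335 CPM), and its groups did not overlap either. Over all 14316 tested genes the threshold was passed by 0.314% (0.231% lower with HU-308), and groups that do not overlap were seen in 51.3% (25.4% lower). A log2 fold change of −1 or lower was found in 3.94% of tested genes.

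Regulatory T cells are another source of IL-10, and their markers went in both directions in the same libraries. Of 8 markers all were tested and 6 had negative log2 fold changes, beside 6864 of all 14316 tested genes. In the edgeR test 1 marker fell and none rose, with a median of −0.74. The one that fell was Ikzf4, the factor Eos, at 136 and 189 CPM with DMSO and 22.6 and 30.6 CPM with HU-308 (−2.61 ± 0.24, edgeR adjusted p = 0.0389). Tnfrsf4, the costimulatory receptor OX40, was at 434 and 667 against 216 and 314 CPM (−1.05 ± 0.28, adjusted p = 0.148). Foxp3, the defining factor of these cells, was at 0.750 to 1.12 CPM in the 4 libraries (0.01 ± 0.47, edgeR adjusted p = 0.99). Ikzf2, the other marker with a positive log2 fold change, was at 0.519 and 0.460 against 0.832 and 0.948 CPM (0.86 ± 0.49, adjusted p = 0.402). The 8 markers summed to 7581 and 6321 CPM with DMSO and to 3779 and 2287 CPM with HU-308, most of it Il2ra, which activated helper T cells also express. Of 9 genes taken as signs of RNA quality, 7 had negative log2 fold changes and none was called by edgeR, with a median of −0.37. At an unadjusted p under 0.05 (edgeR) 1 was lower, mt-Nd1 at −0.67 ± 0.20, beside 1428 lower of all 14316 genes. The 9 genes summed to 16880 and 13720 CPM with DMSO and 12240 and 10520 CPM with HU-308. DESeq2 called 3 of the regulatory T cell markers and 1 of the RNA quality genes lower. With no filter on low counts 3 and 0 were lower. With the replicate block 6 and 5 were lower and 0 and 1 higher. Over all genes DESeq2 called 520 lower and the fit with no filter 371 lower of 25576. The replicate block called 2445 lower and 2394 higher of 14316. The part of either list in the levels of Il10 and Il24 was not tested.

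The call of Il10 lies close to the threshold, and that of Il24 depends on the test. Leaving out HU-308 replicate 2 ended the call of Il10 (edgeR adjusted p = 0.0753), and its adjusted p ranged from 2.31e-20 to 0.112 over all alternatives. Il24 passed with DESeq2 (adjusted p = 1.38e-08, where 4.4% of the 11818 genes given an adjusted p were called lower). Its adjusted p ranged from 1.82e-20 to 0.132 over all alternatives. Leaving out DMSO replicate 2 gave Il24 a log2 fold change of −1.36 and leaving out DMSO replicate 1 gave −2.14, the smallest and the greatest drop of any setting run. In the authors' deposited table Il10 has an adjusted p of 3.17e-12 and Il24 of 1.33e-09. Of its 23290 genes with an adjusted p, 2.07% pass with a lower level.

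**Figure D2:**
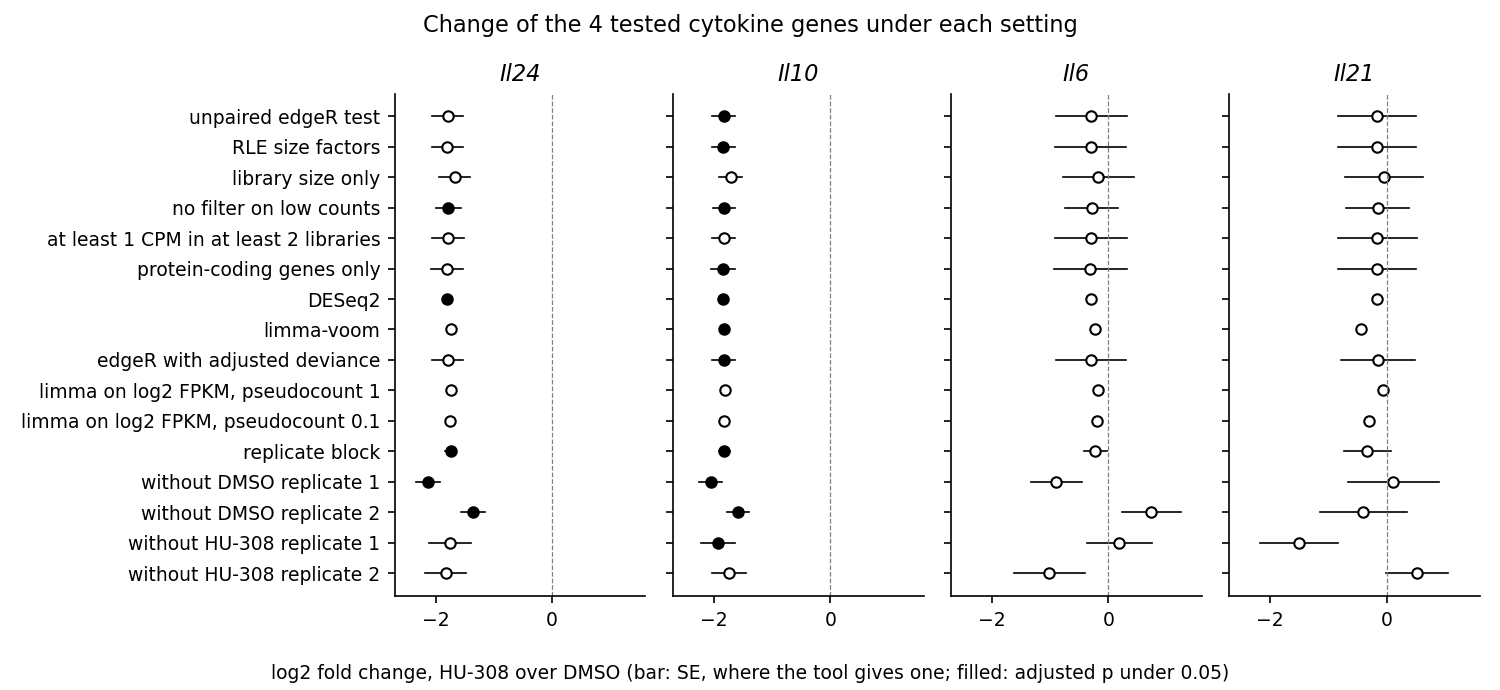
Log2 fold change (HU-308 over DMSO) of the 4 tested cytokine genes on the x axis, 1 row per setting, with SE bars where the tool gives one and filled points at an adjusted p under 0.05. Il24 and Il10 stay between −2.14 and −1.36 in every row, while Il6 and Il21 change sign when single libraries are left out.

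Il24 and Il10 kept nearly the same proportion to each other. The FPKM of Il24 was 2.62 and 3.25 times that of Il10 in the DMSO libraries and 2.81 and 3.37 times in the HU-308 libraries. In both groups replicate 2 had the higher ratio, and the groups overlapped. Over the 4 libraries the 2 profiles lay 0.296 apart, as a Euclidean distance between log2 CPM values centred on each gene's mean. Il6 lay 2.05 from Il10 and Il21 lay 1.96 from it, on the same measure.

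The search for like profiles covered the 10435 genes whose mean log2 CPM was 2 or more. Of these, those nearest to Il10 over the 4 libraries were Tmem158 (distance 0.164), Bhlha15 (0.192) and Chd7 (0.231), the last a chromatin remodeller. Nearest to Il24 were Lama5, a laminin chain (0.133), Maml3, a coactivator of Notch (0.151), and Gm17767 (0.161). These 6 genes were picked for their likeness over the same libraries, so a drop near that of Il10 or Il24 follows from the choice. Their log2 fold changes ran from −1.95 to −1.68. Among them Chd7 passed the threshold, as did 0.314% of all tested genes (661 ± 85.0 to 182 ± 6.93 CPM, edgeR adjusted p = 0.0389).

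Il10 and Il24 sit in the IL-10 family cluster with Il19 and Il20 between them, and the starts of Il24 and Il10 are 132.4 kb apart. Il19, another ligand of the family, was read at 4.96 and 10.6 CPM with DMSO and 5.35 and 7.58 CPM with HU-308. Its log2 fold change was −0.27 ± 0.42 (edgeR adjusted p = 0.758), with groups that overlapped. Il20, whose product shares its receptors with IL-24, stood at 1.73 and 1.53 CPM with DMSO and 1.84 and 2.25 CPM with HU-308 (0.33 ± 0.37, adjusted p = 0.664). So both genes between Il24 and Il10 were far lower than either and had no call, and the difference in change between the genes was not tested.

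Within 200 kb of Il10, 9 of 14 genes were tested and Il10 was the only one past the threshold. Mapkapk2, the kinase that stabilises cytokine messages downstream of p38, was at 328 and 343 CPM with DMSO and 241 and 231 CPM with HU-308 (−0.51 ± 0.13, edgeR adjusted p = 0.139). Of the 9, 5 had negative and 4 positive log2 fold changes, beside 6864 and 7452 of all 14316 tested genes.

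**Figure D3:**
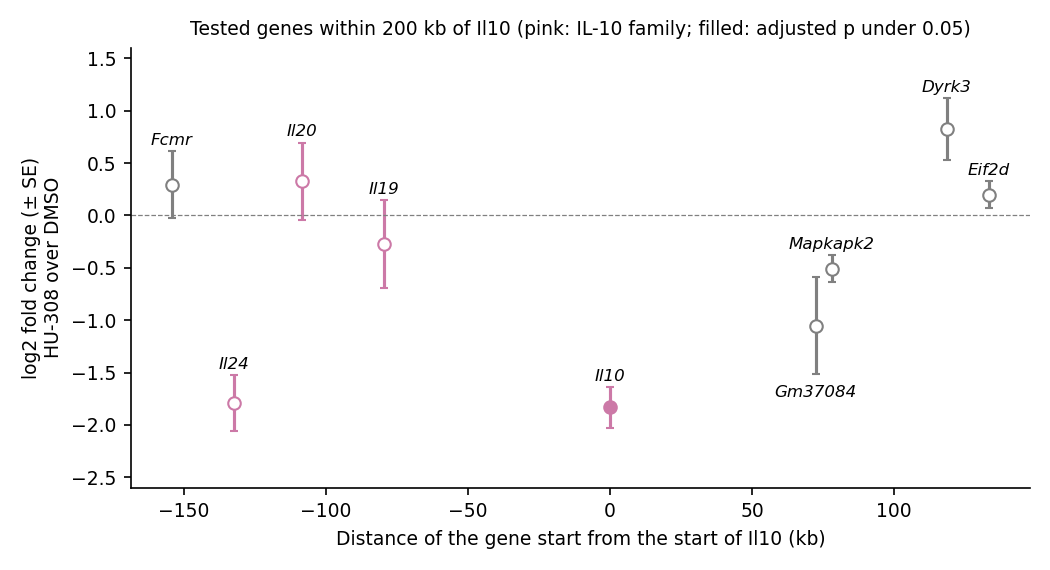
Log2 fold change (HU-308 over DMSO, with SE bars) of the 9 tested genes within 200 kb of Il10, against the distance of each gene's start from that of Il10 in kb. Il24 and Il10 lie near −1.8, and Il20 and Il19 between them lie within 0.33 of 0.

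Il6 (ENSMUSG00000025746; chromosome 5, 30013114 to 30019981, plus strand) was read at 5.48 and 16.8 CPM with DMSO and 5.52 and 12.7 CPM with HU-308. The libraries of replicate 2 were high and those of replicate 1 low in both groups. The log2 fold change was −0.29 ± 0.61 (edgeR adjusted p = 0.83), and leaving out 1 library gave 0.73 (DMSO replicate 2 left out), 0.19 (HU-308 replicate 1), −0.90 (DMSO replicate 1) or −1.01 (HU-308 replicate 2). The spread within each group was therefore larger than the difference between groups. The nearest profiles were Fam102a (distance 0.216), Gcnt1, a glycosyltransferase of core 2 O-glycans (0.226), and Unc13a (0.251), none of them called.

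Adgre1, which encodes the macrophage marker F4/80, was likewise high in both replicate 2 libraries, at 74.1 and 59.4 CPM against 37.3 and 26.4 CPM in replicate 1. The 12 macrophage and monocyte markers summed to 47.1 and 82.0 CPM with DMSO and 37.0 and 68.1 CPM with HU-308. Adgre1 made up most of that sum. The other 2 tested markers did not share the pattern, with Cd68 at 3.98 and 3.37 CPM with DMSO and 3.39 and 3.44 CPM with HU-308, and Ly6c2 at 4.85 and 3.93 against 6.42 and 4.44 CPM. Lyz2, C1qa and C1qb were at 0 and Csf1r had 1 read over the 4 libraries. The part of other cells in Il6 was not tested.

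Il21 (ENSMUSG00000027718; chromosome 3, 37222759 to 37232636, minus strand), a cytokine of follicular helper T cells, had 45 and 35 reads with DMSO and 53 and 13 with HU-308. That is 2.60 and 1.79 CPM against 3.15 and 0.77 CPM, so HU-308 replicate 1 was the highest library and HU-308 replicate 2 the lowest. Its log2 fold change was −0.16 ± 0.67 (edgeR adjusted p = 0.922), and leaving out 1 library gave 0.52 (HU-308 replicate 2 left out), 0.12 (DMSO replicate 1), −0.40 (DMSO replicate 2) or −1.50 (HU-308 replicate 1). The spread between the 2 HU-308 libraries was larger than the difference between the groups. Bcl6, the repressor that directs follicular helper cells, was higher with HU-308 in the same libraries (2.14 and 2.71 CPM against 29.5 and 34.1 CPM, edgeR adjusted p = 0.0246). The profiles nearest to that of Il21 were Rtl5 (distance 0.305), Lonrf1 (0.38) and Myb (0.384), the last a transcription factor of progenitor and memory T cells.

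Csf2 (ENSMUSG00000018916; chromosome 11, 54247271 to 54249667, minus strand) had 5 and 2 reads with DMSO and 5 and 6 reads with HU-308. It did not pass the filter on low counts and was not tested. Il3 (ENSMUSG00000018914; chromosome 11, 54265303 to 54267277, minus strand), whose start lies 17.6 kb from that of Csf2, had no read in any library. Neither of these myeloid growth factors was therefore given more than 6 reads in a library in cells restimulated for 12 h.

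Il2 (ENSMUSG00000027720; chromosome 3, 37120523 to 37125959, minus strand) had 0 and 0 reads with DMSO and 0 and 1 with HU-308. Il9 (ENSMUSG00000021538; chromosome 13, 56479277 to 56482246, minus strand) had no read. A count of 0 allows up to 3 reads, which is 0.146 to 0.186 CPM depending on the library (not scaled by TMM), and this covers counting error only. Whether these genes differed between the groups could not be examined at this depth. The only fit of Il2, with no filter on low counts, rests on 1 read. Il2 and Il21 are neighbours, with starts 106.7 kb apart. Within 200 kb of Il2, 3 of 14 genes were tested, and within 200 kb of Il3, 3 of 15. None of these 6 was called by edgeR or DESeq2. At an unadjusted p under 0.05 (edgeR) there were 0 and 1, beside 2687 of all 14316 tested genes. A longer list of neighbours of the Il10, Il3 and Il2 loci reaches past that window. Of its 21 genes 15 were tested, 1 fell (Spata5, which starts beyond 200 kb from Il2, from 59.6 ± 8.03 to 21.3 ± 0.966 CPM, edgeR adjusted p = 0.0495) and none rose, with a median of 0.20. The call of Spata5 was lost when either HU-308 replicate was left out (adjusted p = 0.0647 and 0.105), with library-size scaling (0.0625), with a filter of 1 CPM in 2 libraries (0.0521) and with limma on log2 FPKM (0.112 and 0.110).

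The 250 bases before the start of 4 of these genes are shown because they set genes with no or almost no read (Il2 and Il9) beside genes that were read in every library (Il6 and Il21). Sequences are from RefSeq (GRCm38.p6), which matched Il2, Il3, Il6, Il9, Il21 and Csf2, 6 of the 8. Each is written 5′ to 3′ on the gene's strand. Capitals mark the NFAT core GGAAA and the AP-1 motif TGANTCA, on either strand.
Il2 (chr3:37125955-37126204, minus): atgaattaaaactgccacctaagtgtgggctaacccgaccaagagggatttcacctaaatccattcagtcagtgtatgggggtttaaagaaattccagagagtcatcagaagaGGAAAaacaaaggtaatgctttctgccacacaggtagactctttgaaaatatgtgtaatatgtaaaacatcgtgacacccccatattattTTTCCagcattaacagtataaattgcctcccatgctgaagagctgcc
Il9 (chr13:56482258-56482507, minus): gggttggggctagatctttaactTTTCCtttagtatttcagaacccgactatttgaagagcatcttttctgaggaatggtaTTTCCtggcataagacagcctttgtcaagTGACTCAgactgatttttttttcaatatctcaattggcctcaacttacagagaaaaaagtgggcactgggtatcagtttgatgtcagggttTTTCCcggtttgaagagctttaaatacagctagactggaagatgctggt
Il6 (chr5:30012864-30013113, plus): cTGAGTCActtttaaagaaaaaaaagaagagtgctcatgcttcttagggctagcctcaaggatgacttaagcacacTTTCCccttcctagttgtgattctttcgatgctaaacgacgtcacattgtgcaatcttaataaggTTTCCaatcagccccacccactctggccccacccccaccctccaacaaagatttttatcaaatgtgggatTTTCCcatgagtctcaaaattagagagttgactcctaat
Il21 (chr3:37232637-37232886, minus): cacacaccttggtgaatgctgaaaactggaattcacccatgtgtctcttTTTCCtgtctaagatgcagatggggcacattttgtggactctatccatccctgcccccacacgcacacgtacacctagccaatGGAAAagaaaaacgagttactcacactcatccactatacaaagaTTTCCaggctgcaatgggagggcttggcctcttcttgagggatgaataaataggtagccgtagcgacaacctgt
The NFAT core was found at 2 places before Il2 and at 3 before each of Il9, Il6 and Il21, and 55.6% of all 32851 promoters of the same length hold it. The AP-1 motif was found once before Il9 and once before Il6 and in neither Il2 nor Il21 in this window, against 6.75% of all promoters. The letters TTCNNNGAA (STAT), TGACGTCA (CRE) and, for the factor family that holds Gata3, AGATAA were in none of the 4. Of all promoters 7.02%, 1.55% and 9.99% held them. Il3 and Csf2, matched but not shown, each held 1 AGATAA and neither the STAT nor the CRE letters. A match to these letters is a description of the sequence and not a binding site, and the genes with and without reads both held NFAT cores.

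The receptors of these cytokines were read at levels from 0 to 6715 CPM. Of 16 receptor genes 13 were tested, 1 fell and none rose, with a median log2 fold change of 0.20 beside 0.02 over all tested genes. The gene that fell was Il6st, which encodes gp130, the signalling chain for IL-6, at 179 and 170 CPM with DMSO and 77.8 and 67.3 CPM with HU-308 (−1.27 ± 0.14, edgeR adjusted p = 0.0495). Its partner Il6ra, which binds IL-6, lay at 29.0 and 45.4 CPM with DMSO and 48.1 and 65.1 CPM with HU-308 (0.61 ± 0.27, adjusted p = 0.294). The 2 chains thus had log2 fold changes of opposite sign. Leaving out either HU-308 replicate 1 or HU-308 replicate 2 ended the call of Il6st (edgeR adjusted p = 0.0642 and 0.135), as did library-size scaling (0.0652), the filter of 1 CPM in 2 libraries (0.0521) and limma on log2 FPKM (0.112 and 0.110), and no receptor gene was called in those settings. Other settings called more: 1 higher and 4 lower with DESeq2 or with no filter, and 5 higher and 5 lower with the replicate block. Those fits also called more over all genes. DESeq2 called 283 higher and 520 lower, and the fit with no filter 190 higher and 371 lower of 25576. The replicate block called 2394 higher and 2445 lower of 14316.

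Il10ra, the ligand-binding chain for IL-10, was at 153 and 175 CPM with DMSO and 60.1 and 77.0 CPM with HU-308 (−1.26 ± 0.17, edgeR adjusted p = 0.0664). Il10rb, the shared second chain, was at 15.7 and 17.2 against 23.2 and 20.5 CPM (0.41 ± 0.18, adjusted p = 0.291). The high-affinity IL-2 receptor chain Il2ra reached 6715 and 5021 CPM with DMSO and 3342 and 1640 CPM with HU-308 (−1.24 ± 0.36, adjusted p = 0.171). So Il2ra was abundant in libraries in which Il2 had 1 read in all. Il2rb was at 1633 and 2086 against 1134 and 1090 CPM (−0.74 ± 0.17, adjusted p = 0.127), and Il2rg, the common gamma chain, at 169 and 189 against 197 and 259 CPM (0.34 ± 0.18, adjusted p = 0.352). Il9r, the IL-9 receptor, had the highest log2 fold change of the list at 1.75 ± 0.45, from 6.12 and 13.1 to 22.7 and 42.0 CPM, and did not pass (adjusted p = 0.144).

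Il21r stood at 247 and 346 CPM with DMSO and 181 and 236 CPM with HU-308 (−0.51 ± 0.22, edgeR adjusted p = 0.291). Csf2rb, the beta chain shared by IL-3 and GM-CSF, was almost unread, with 5 reads in all, and the beta chain Csf2rb2 had 4. The alpha chain Il3ra was present at 34.6 to 45.9 CPM and Csf2ra at 4.90 to 10.5 CPM. Il22ra1, a chain of an IL-24 receptor on epithelial cells, had no read, and its partner Il20rb lay at 3.22 to 4.69 CPM.

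**Figure D4:**
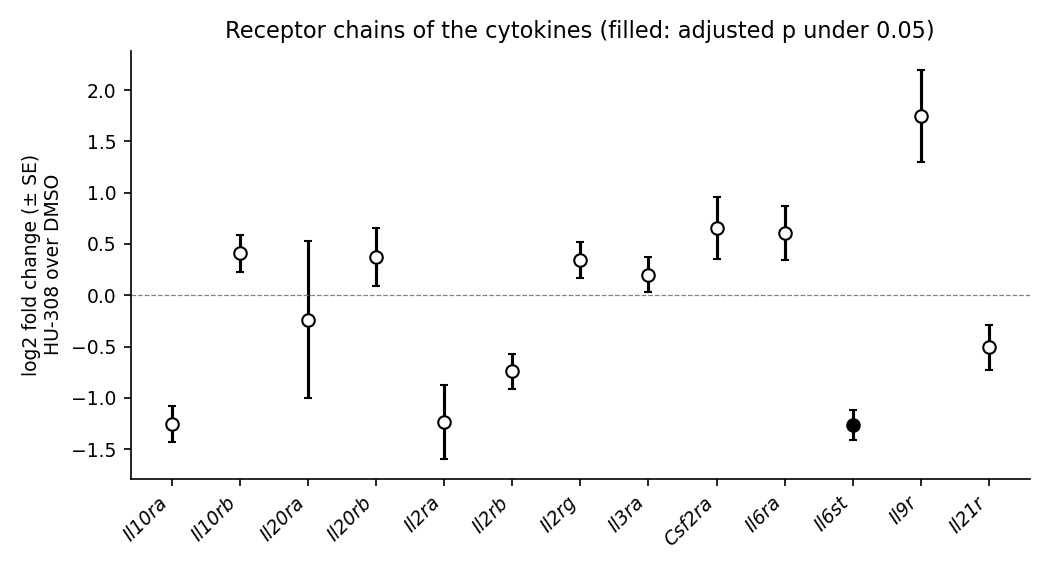
Log2 fold change (HU-308 over DMSO, with SE bars) of the 13 tested receptor genes, ordered by the cytokine they bind, with a filled point at an adjusted p under 0.05. Il6st at −1.27 is the single filled point, and Il9r at 1.75 is the highest.

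Of 36 transcription factor genes that act on these cytokines, 34 were tested, 1 rose (Bcl6) and none fell, with a median of −0.35 beside 0.02 over all tested genes. Of these 34, 22 had negative and 12 positive log2 fold changes, beside 6864 and 7452 of all 14316 tested genes. Maf, a known activator of Il10 and Il21, was at 274 and 504 CPM with DMSO and 169 and 234 CPM with HU-308 (−0.95 ± 0.32, edgeR adjusted p = 0.212). Prdm1, which encodes the Il10 activator and Il2 repressor Blimp-1, was at 178 and 206 against 140 and 75.7 CPM (−0.83 ± 0.30, adjusted p = 0.226). In both genes the groups did not overlap, which held for 21 of the 34 factors and 51.3% of all tested genes (25.4% lower). The count of factors called lower depended on the setting. It was 7 with DESeq2, 5 with no filter and 19 (beside 7 higher) with the replicate block. With limma on log2 FPKM no factor was called in either direction. DESeq2 called 4.4% lower of the 11818 genes to which it gave an adjusted p, and the fit with no filter 371 lower of 25576. The replicate block called 2445 lower and 2394 higher of 14316 genes.

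Irf4, a factor of Th2 and IL-9 producing cells, had a log2 fold change of −1.63 ± 0.29 (815 and 619 against 290 and 172 CPM, edgeR adjusted p = 0.0861). Nfatc2, an NFAT factor that drives cytokine genes, had one of −0.72 ± 0.17 (627 and 799 against 417 and 447 CPM, adjusted p = 0.123). The other NFAT genes listed did not share that drop. Nfatc1 was at 119.9 and 114.4 against 147.5 and 159.5 CPM (0.39 ± 0.13, edgeR adjusted p = 0.208). Nfatc3 was at 304 and 244 against 267 and 275 CPM (−0.015 ± 0.156, adjusted p = 0.97). With Irf4 and Nfatc2, the most abundant factors were Ets1, Ikzf1, Nfkb1 and Gata3, these 4 with adjusted p between 0.177 and 0.92. Of 13 genes for decay of AU-rich cytokine messages, all were tested and none passed in either direction, with a median of −0.09. At an unadjusted p under 0.05 (edgeR) 2 were higher and 1 lower, beside 1259 higher and 1428 lower of all 14316 genes. DESeq2 and the fit with no filter each called 1 of the 13 lower, beside 520 and 371 lower over all genes. The replicate block called 4 higher and 6 lower, beside 2394 higher and 2445 lower of all 14316 genes. Scaling to library size alone gave that list a median of 0.03 and shifted the median over all tested genes by the same 0.118.

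The other 30 cytokine genes give the setting of the 8. Of them 18 were tested, 2 fell (Il5 and Il13) and none rose, with a median of −0.75 beside 0.02 over all tested genes. At an unadjusted p under 0.05 (edgeR) 9 were lower and 2 higher, beside 1428 lower and 1259 higher of all 14316 genes. The 9 included Lif (−2.63 ± 0.36, edgeR adjusted p = 0.0646) and Osm (−1.58 ± 0.21, adjusted p = 0.0646). The 2 included Il16 (0.625 ± 0.187, adjusted p = 0.176). Il13 fell from 25.3 ± 6.82 to 1.96 ± 0.675 CPM and Il5 from 12.0 ± 1.61 to 1.04 ± 0.128 CPM (edgeR adjusted p = 0.0389 for each). With DESeq2 7 were lower, with no filter 7 were lower and 1 higher, and with limma on log2 FPKM none was called. With the replicate block 9 were lower and 4 higher, beside 2445 lower and 2394 higher of all 14316 genes. Among all genes DESeq2 called 520 lower, and the fit with no filter 371 lower and 190 higher of 25576. In the fits without 1 library the median of the 18 lay between −1.04 and −0.40. Il10 lay above Il13 and Il5 in FPKM in every library. Its log2 fold change of −1.83 stands beside −3.69 for Il13 and −3.53 for Il5, and the difference between the genes was not tested. A lower level in bulk samples cannot be told apart from fewer cells that make the transcript.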

How the data were processed

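The data are RNA sequencing of 4 libraries of mouse Th2 cells. Read counts per gene are unscaled whole numbers per the file headers. FPKM values were made by the authors from a deposited gene length and a per-library depth that differs from the summed counts. Columns of signal hold a deposited mean of scaled counts for each group and were not used. The log2 fold change and p-value columns are the authors' own comparison as deposited, HU-308 over DMSO. The submitters' processing notes name Bowtie2 2.3.4.3, RSEM 1.3.1, DESeq2 1.4.5 and GRCm38 (mm10), without the step each served; if RSEM made the counts, they were rounded. The strand setting is not given in the sources used here.

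Groups came from the labels and were compared as unpaired samples. Counts were filtered (filterByExpr, minimum count 10, minimum total 15), scaled by TMM and tested in R 4.3.3 with edgeR 4.0.16 (quasi-likelihood F test), with p-values adjusted by Benjamini-Hochberg over 14316 genes at 0.05. There were 2 residual degrees of freedom. The SE is the absolute log2 fold change over the square root of F. Of the 8 cytokine genes 4 passed the filter. On simulated data of 14316 genes 44.3% of genes simulated with a log2 change of 1 were called, 87.8% of those with 2 and 0.0411% of unchanged genes. The simulated spread followed the fitted trend alone. It had no scatter of single genes around that trend and no effect shared by same-numbered libraries. These rates therefore need not hold for the real libraries and may be too favourable. Replicates were not copies: chi-square divided by its degrees of freedom was 38.1 between the DMSO libraries and 26.1 between the HU-308 libraries.

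The genes and lists were chosen with earlier results of these data known. Genes named are the 8 cytokines, called genes of each list with up to 6 of its most abundant genes, and the 3 nearest profiles. Il6ra, Il9r, Maf, Prdm1 and other receptors and neighbours outside that rule complete a pathway and were named after their values were seen. Ikzf2, Nfatc1 and Nfatc3 lie outside the rule too and were also named after their values were seen. All 8 gene models match GENCODE mouse release 21 in position. Il21 shares 8.92% of its exon bases with Gm12534 and Csf2 12.0% with Gm12223, both on the opposite strand and without reads. Alternatives were RLE (DESeq2) and library-size scaling, 2 other filters, protein-coding genes, DESeq2 1.42.0, limma-voom and limma 3.58.1 on log2 FPKM with pseudocounts of 1 and 0.1, the adjusted deviance of edgeR, a replicate block and each library left out. Figures used Python 3.11.15 and matplotlib 3.10.9.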

Additional observations from a re-analysis of the deposited data

How the results depend on the processing

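Il10 and Il24 were lower with HU-308 under all 15 alternatives, with log2 fold changes of −2.05 to −1.58 for Il10 and −2.14 to −1.36 for Il24 when each library was left out. The call of Il10 was lost with library-size scaling (−1.71), with at least 1 CPM in at least 2 libraries (−1.83) and with limma on log2 FPKM (−1.81 at a pseudocount of 1, −1.82 at 0.1), and without HU-308 replicate 2. Il24 gained a call with no filter on low counts (−1.78), with DESeq2 (−1.80), with a replicate block (−1.74) and without either DMSO replicate. Log2 fold changes of Il6 ran from −1.01 to 0.73 and those of Il21 from −1.50 to 0.52 over the fits without 1 library, changing sign with no call. Of the 8 cytokine genes, 1 was called in the unpaired test, 0 with library-size scaling, the CPM filter or limma on log2 FPKM, 2 with no filter, DESeq2 or the block, and 0 to 2 without 1 library. Over all genes the 45 calls became 20 with library-size scaling (60.0% rather than 73.3% lower), 28 with the CPM filter, 561 with no filter, 803 with DESeq2, 0 with limma on log2 FPKM (2625 at an unadjusted p under 0.05 at a pseudocount of 1, 2629 at 0.1), 4839 with the block and 23 to 206 without 1 library. The cause of these differences was not tested. Same-numbered libraries deviated together over 14316 genes (correlation 0.465), but with 2 pairs and no label that pairs them the numbers only name the libraries. The block leaves 1 residual degree of freedom. Csf2 (log2 fold change 0.74 ± 1.08) and Il2 (2.38 ± 3.35) could be fitted only with no filter, at an edgeR adjusted p of 0.771 each, and Il3 and Il9 in no setting. Depth limits Csf2, Il2, Il3 and Il9, which had at most 6 reads in a library.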
